A study of Mus musculus with 12 samples.

Results

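The dystrophin-glycoprotein complex was followed through 9 genes in C2C12, a mouse myoblast cell line whose cells fuse into myotubes when serum is lowered. The genes were chosen by name, as the rows of the gene count table called Dmd, Utrn, Dag1, Sgca, Sgcb, Sgcd, Sntb1, Dtna and Lama2, which are 9 of its 21232 rows. RNA sequencing covered 4 groups of 3 libraries. The TNF group was differentiated for 48 h with tumour necrosis factor at 10 ng/ml, the Fbxl2 siRNA group was differentiated for 48 h after transfection with small interfering RNA against Fbxl2, which encodes a ubiquitin ligase subunit, the control group was differentiated for 48 h, and the proliferation group was harvested at 0 h in growth medium. All cells were C2C12, labelled as strain C57BL/6, so every group stands for 1 cell line, and differentiation was induced with horse serum in place of fetal bovine serum. The labels do not say whether the control and TNF cells received a non-targeting siRNA, nor whether the letters A, B and C mark separate cultures, so p-values reflect library-to-library spread, part of which could be technical.

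The complex spans the muscle cell membrane. Dystrophin, or its homologue utrophin, binds cortical actin inside the cell and β-dystroglycan at the membrane, the sarcoglycans brace dystroglycan within the membrane, syntrophins and dystrobrevin attach to dystrophin as adaptors, and α-dystroglycan outside the cell binds laminin through its sugar chains. Loss of dystrophin, sarcoglycans or laminin α2 causes muscular dystrophies, and dystrophin is known as a product of mature muscle fibres.

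Library totals ran between 26416978 and 32917763 counts, and 14303 to 14796 genes had at least 1 count. Levels are given as CPM, counts scaled with TMM factors (trimmed mean of M values) to a library of 1000000 counts, and 3 counts, taken as the detection floor, equalled 0.0899 to 0.113 CPM. Fbxl2 averaged 28.9 ± 1.05 CPM with TNF, 22.2 ± 1.52 CPM with Fbxl2 siRNA, 32.9 ± 1.30 CPM in control and 25.9 ± 1.71 CPM in proliferation (SD, n = 3 each), which left the siRNA group at 67.5% of control. Of the 9 genes, 8 passed the filter on low counts and were tested among 12736 genes with edgeR's quasi-likelihood test, and a gene is called higher or lower here where the Benjamini-Hochberg adjusted p was under 0.05. Dmd did not pass the filter. Gene coordinates are those of GENCODE M21 on GRCm38. In bulk RNA, fewer cells expressing a gene and less RNA per cell cannot be told apart.

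The bases just before an annotated start are shown for 4 genes: Sgca, which had the largest fold change of the 8 members tested in control over proliferation, Dag1, the most abundant per length, Sgcd, which was higher with TNF, and Dmd, which was barely detected. The RefSeq promoter table used here (GRCm38.p6) was matched for 7 of the 9 genes. Each window holds the 250 bases before a RefSeq start, 5′ to 3′ on the gene's strand. Capitals mark matches on either strand to the E-box CANNTG (bound by myogenic and other factors) and the GC box GGGCGG (bound by SP1). They also mark matches to the CArG box (bound by serum response factor) and the MEF2 site. The CArG box and MEF2 site letters are A/T-rich.
Sgca, chr11:94976328-94976577, minus strand: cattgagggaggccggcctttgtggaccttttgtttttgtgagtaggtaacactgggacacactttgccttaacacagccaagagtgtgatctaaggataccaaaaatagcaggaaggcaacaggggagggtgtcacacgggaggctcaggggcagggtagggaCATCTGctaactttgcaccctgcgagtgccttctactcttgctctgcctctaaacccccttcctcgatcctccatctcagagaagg
Dag1, chr9:108263959-108264208, minus strand: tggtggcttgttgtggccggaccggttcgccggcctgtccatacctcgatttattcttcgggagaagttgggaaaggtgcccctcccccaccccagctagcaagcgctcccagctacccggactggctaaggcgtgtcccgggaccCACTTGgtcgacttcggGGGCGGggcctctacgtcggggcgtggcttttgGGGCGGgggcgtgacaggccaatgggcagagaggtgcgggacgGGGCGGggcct
Sgcd, chr11:47379326-47379575, minus strand: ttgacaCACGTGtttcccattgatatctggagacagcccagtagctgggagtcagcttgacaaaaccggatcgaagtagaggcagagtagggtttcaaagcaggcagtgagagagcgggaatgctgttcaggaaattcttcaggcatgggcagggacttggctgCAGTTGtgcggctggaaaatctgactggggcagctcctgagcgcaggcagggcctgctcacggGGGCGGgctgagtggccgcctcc
Dmd, chrX:82948620-82948869, plus strand: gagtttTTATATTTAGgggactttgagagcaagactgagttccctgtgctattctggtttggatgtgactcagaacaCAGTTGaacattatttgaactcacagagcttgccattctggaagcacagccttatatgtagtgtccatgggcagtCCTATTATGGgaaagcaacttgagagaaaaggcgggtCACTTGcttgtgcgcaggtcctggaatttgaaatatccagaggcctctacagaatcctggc
The Sgca window held 1 E-box, starting 86 bases before the start, and no GC box. In Dag1 there were 3 GC boxes, starting 87, 54 and 11 bases before the start, and 1 E-box at 104. Dag1 had 2 RefSeq starts, with overlapping windows. Counted from the start not shown, the same GC boxes lay at 230, 197 and 154 and the E-box at 247. Sgcd had E-boxes at 244 and 86 and a GC box at 23. The Sgcd window lies inside the GENCODE span of the gene (chr11:46896253-47988969, minus strand), so its start is not the most upstream one annotated. The Dmd window, before the most upstream of its RefSeq starts used here, held E-boxes at 173 and 61, a CArG box at 98 and a MEF2 site at 244. The E-box forms CAGCTG and CACCTG had 0 matches in the 4 windows shown. Among the same 250-base windows of all 32841 RefSeq promoters, 66.2% held CANNTG, 13% CAGCTG and 17.2% CACCTG. Of these windows 32.7% held GGGCGG, 1.47% a CArG box and 2.92% a MEF2 site. These matches describe letters in the windows and were not tested for binding.

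Of the actin-binding members, dystrophin mRNA was close to the detection floor and utrophin mRNA was abundant. Dmd (GRCm38 chrX:82948870-85206141, plus strand) had 3, 2 and 2 counts in the TNF libraries, 4, 1 and 1 counts with Fbxl2 siRNA, 8, 4 and 5 counts in control, and 0, 1 and 2 counts in proliferation. Each control library had at least as many counts as any library of the other groups, and no library exceeded 8 counts. In CPM, control library B (0.139) lay below siRNA library A (0.142), so the control and siRNA groups overlapped. Summed over libraries, the control to proliferation ratio was 5.63, with an exact 95% counting interval of 1.63 to 30.0. The TNF to control ratio was 0.411 (0.144 to 1.04) and the Fbxl2 siRNA to control ratio was 0.371 (0.12 to 0.985). These intervals cover counting error only, since reads of 1 library are not independent cultures. With no filter on low counts, edgeR called Dmd higher in control than in proliferation (adjusted p = 0.0113), while DESeq2 gave an adjusted p of 0.0529. The authors' deposited tables listed adjusted p-values of 0.289 for TNF over control and 0.229 for Fbxl2 siRNA over control.

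Utrn (chr10:12382188-12869365, minus strand), whose product takes dystrophin's place at the membrane in many cells, stood at 228, 187 and 200 CPM with TNF, 179, 143 and 165 CPM with Fbxl2 siRNA, 255.4, 249.6 and 251.2 CPM in control and 215, 150 and 175 CPM in proliferation. All 3 control libraries lay above the other 9, and every TNF library lay above every siRNA library, while proliferation overlapped both. The means were 205 ± 20.8, 162 ± 18.4, 252 ± 2.995 and 180.1 ± 32.8 CPM in that order of groups (SD, n = 3 each). Utrn rose in control over proliferation by 0.48 (log2, SE 0.13, adjusted p = 0.00611), a call that was lost without the C libraries of every group (adjusted p = 0.0676). It fell with Fbxl2 siRNA relative to control by 0.64 (SE 0.13, adjusted p = 0.0016). For TNF over control the log2 fold change was -0.30 (95% confidence interval -0.59 to -0.01, adjusted p = 0.0760), which missed the threshold. Without library A of the TNF group the adjusted p was 0.0436, without the A libraries of every group 0.000443, in a fit of the TNF and control libraries alone 0.000672, and with library totals only 0.0415. TNF over proliferation (adjusted p = 0.220) and Fbxl2 siRNA over proliferation (adjusted p = 0.334) were not called. For TNF over control, the authors' deposited table gave -0.32 with an adjusted p of 9.85e-08.

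Dag1 (chr9:108204634-108263958, minus strand) encodes the precursor of α- and β-dystroglycan, the transmembrane core of the complex. It stood at 636, 586 and 609 CPM with TNF, 509, 443 and 511 CPM with Fbxl2 siRNA, 801, 788 and 760.1 CPM in control and 273, 241 and 271 CPM in proliferation. The 4 groups did not overlap, in the order control, TNF, Fbxl2 siRNA and proliferation. Dag1 was 2.99-fold higher in control than in proliferation (log2 1.58, SE 0.06, adjusted p = 2.10e-15). It fell with TNF by 0.36 (SE 0.06, adjusted p = 2.31e-05) and with Fbxl2 siRNA by 0.68 (SE 0.06, adjusted p = 2.93e-09), both on the log2 scale relative to control. Each step in the order of the 4 means was past the threshold, including TNF over Fbxl2 siRNA at 0.32 (adjusted p = 7.30e-05) and Fbxl2 siRNA over proliferation at 0.90 (adjusted p = 5.75e-11).

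**Figure D1:**
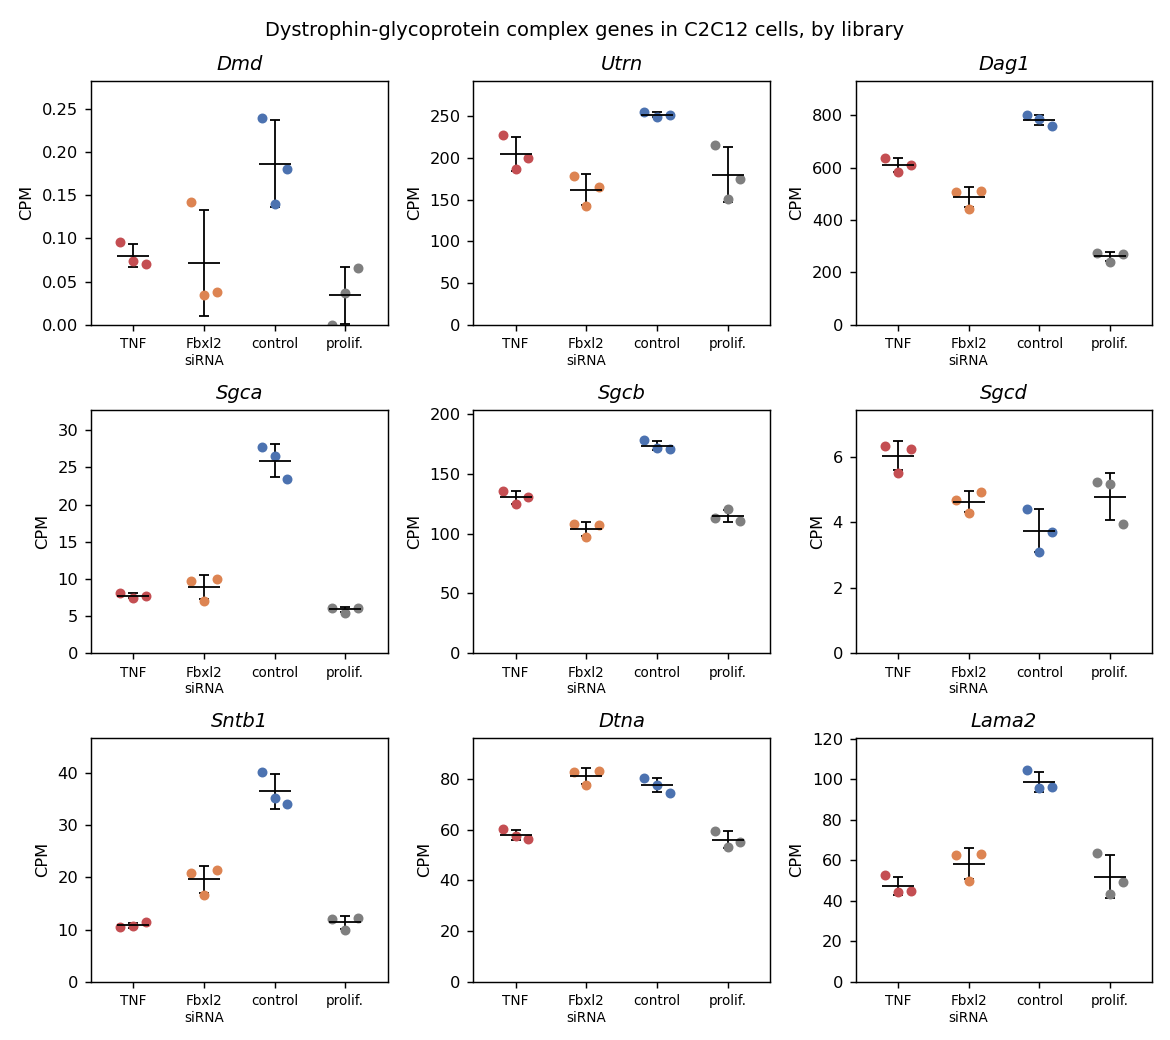
Levels of the 9 genes in CPM (TMM-scaled, linear axes from 0) in each library of the TNF, Fbxl2 siRNA, control and proliferation (prolif.) groups; points are libraries A, B and C from left to right, the horizontal line is the mean and the bar is 1 SD (n = 3). Control libraries are the highest for Utrn, Dag1, Sgca, Sgcb, Sntb1 and Lama2, TNF libraries are the highest for Sgcd, and Dmd stays under 0.25 CPM in every library.

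The sarcoglycans form a membrane subcomplex with dystroglycan, and 3 of its genes were members. Sgca (chr11:94962791-94976327, minus strand), α-sarcoglycan, is expressed in striated muscle. It stood at 8.16, 7.43 and 7.65 CPM with TNF, 9.66, 7.01 and 10.0 CPM with Fbxl2 siRNA, 27.8, 26.5 and 23.4 CPM in control and 6.12, 5.47 and 6.08 CPM in proliferation. The control libraries were far above the others, and the TNF and siRNA libraries overlapped each other. Sgca was 4.39-fold higher in control than in proliferation (log2 2.14, SE 0.10, adjusted p = 1.47e-13). With TNF it was at 29.9% of control (log2 -1.74, SE 0.10, adjusted p = 7.02e-12), and with Fbxl2 siRNA at 34.3% of control (log2 -1.55, SE 0.10, adjusted p = 4.03e-11). TNF over Fbxl2 siRNA was -0.19 (95% confidence interval -0.43 to 0.04, adjusted p = 0.148). Both lay above proliferation, by 0.39 with TNF (adjusted p = 0.0059) and 0.59 with Fbxl2 siRNA (adjusted p = 0.000219). Without library B of the siRNA group the difference between TNF and Fbxl2 siRNA was -0.34 and passed the threshold (adjusted p = 0.00616).

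Sgcb (chr5:73632749-73647790, minus strand), β-sarcoglycan, is made in more tissues. Its levels were 136, 125 and 131 CPM with TNF, 108, 97.1 and 107 CPM with Fbxl2 siRNA, 178, 172 and 171 CPM in control and 114, 121 and 111 CPM in proliferation. Control was above all other libraries, and every siRNA library was below every proliferation library. Sgcb rose in control over proliferation by 0.59 (log2, SE 0.05, adjusted p = 8.15e-10), and fell relative to control by 0.41 with TNF (SE 0.05, adjusted p = 4.60e-07) and by 0.74 with Fbxl2 siRNA (SE 0.05, adjusted p = 8.44e-11). TNF over Fbxl2 siRNA was 0.33 (adjusted p = 1.16e-05), TNF over proliferation was 0.18 (adjusted p = 0.00297), and Fbxl2 siRNA over proliferation was -0.15 (adjusted p = 0.0167). The last call was lost without proliferation library B (-0.11, adjusted p = 0.058) or siRNA library B (-0.10, 0.108), without the B libraries (-0.063, 0.275) or the C libraries (0.0531) of every group, and in a fit of those groups alone (0.0518). The TNF over proliferation call was lost without the C libraries of every group (adjusted p = 0.0972).

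Sgcd (chr11:46896253-47988969, minus strand), δ-sarcoglycan, was the member called higher with TNF than in control. It stood at 6.33, 5.52 and 6.24 CPM with TNF, 4.69, 4.29 and 4.92 CPM with Fbxl2 siRNA, 4.40, 3.10 and 3.70 CPM in control and 5.23, 5.17 and 3.95 CPM in proliferation. All 3 TNF libraries lay above the other 9, while the other groups overlapped. Its mean was 1.61-fold higher with TNF than in control (log2 0.68, SE 0.13, adjusted p = 0.000177), at 6.03 ± 0.446 CPM with TNF and 3.74 ± 0.653 CPM in control (SD, n = 3 each). TNF over Fbxl2 siRNA was 0.38 (adjusted p = 0.0151), a call lost without library A of the TNF group (adjusted p = 0.0564) or library B of the siRNA group (0.063), and without the A libraries (0.058) or the C libraries (0.057) of every group. Fbxl2 siRNA over control was 0.30 (95% confidence interval 0.01 to 0.59, adjusted p = 0.0644), and it was called without control library A (0.44, adjusted p = 0.0161) or the A libraries of every group (0.0332). Control over proliferation was -0.35 (adjusted p = 0.0273), and that call was lost without proliferation library A (adjusted p = 0.110), proliferation library B (0.0857), control library B (0.163) or control library C (0.0631). It was also lost without the B libraries of every group, where the value was -0.17 (adjusted p = 0.316), in DESeq2 (0.0646) and in a fit of those groups alone (0.0617). Fbxl2 siRNA and proliferation were not told apart (adjusted p = 0.785).

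Among the adaptors, β1-syntrophin and α-dystrobrevin differed in their values with Fbxl2 siRNA. Sntb1 (chr15:55636388-55906949, minus strand), β1-syntrophin, links the complex to signalling proteins. It stood at 10.4, 10.6 and 11.4 CPM with TNF, 20.8, 16.6 and 21.4 CPM with Fbxl2 siRNA, 40.2, 35.2 and 34.1 CPM in control and 12.004, 9.94 and 12.3 CPM in proliferation. Control and siRNA each stood apart from all other libraries, and TNF and proliferation overlapped. Sntb1 rose in control over proliferation by 1.68 (log2, SE 0.09, adjusted p = 5.05e-12), and fell relative to control by 1.76 with TNF (SE 0.10, adjusted p = 8.96e-12) and by 0.90 with Fbxl2 siRNA (SE 0.09, adjusted p = 5.12e-08). TNF over Fbxl2 siRNA was -0.86 (SE 0.10, adjusted p = 5.80e-07), and TNF over proliferation was -0.08 (95% confidence interval -0.31 to 0.14, adjusted p = 0.504).

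Dtna (chr18:23415135-23659715, plus strand), α-dystrobrevin, binds dystrophin and syntrophins. Its levels were 60.3, 57.4 and 56.5 CPM with TNF, 82.9, 77.5 and 83.0 CPM with Fbxl2 siRNA, 80.5, 77.8 and 74.6 CPM in control and 59.6, 53.0 and 55.2 CPM in proliferation. The siRNA and control libraries overlapped, all of them above the TNF and proliferation libraries, which also overlapped. Dtna rose in control over proliferation by 0.47 (log2, SE 0.05, adjusted p = 5.24e-08) and fell with TNF relative to control by 0.42 (SE 0.05, adjusted p = 7.03e-07). Fbxl2 siRNA over control was 0.06 (95% confidence interval -0.04 to 0.17, adjusted p = 0.290), and TNF over Fbxl2 siRNA was -0.48 (SE 0.05, adjusted p = 8.89e-08). TNF over proliferation was 0.05 (adjusted p = 0.373). An antisense gene, Gm47898, overlaps 0.532% of the Dtna exon bases in GENCODE M21, and the counting is not stated to use strand.

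Lama2 (chr10:26980036-27619758, minus strand) encodes the laminin α2 chain, the muscle ligand of α-dystroglycan. It stood at 52.5, 44.5 and 44.6 CPM with TNF, 62.5, 49.5 and 63.1 CPM with Fbxl2 siRNA, 104, 95.8 and 96.0 CPM in control and 63.5, 43.1 and 49.2 CPM in proliferation. The control libraries were above all others, and the remaining groups overlapped. Lama2 rose in control over proliferation by 0.93 (log2, SE 0.14, adjusted p = 0.000164), and fell relative to control by 1.06 with TNF (SE 0.14, adjusted p = 0.000120) and by 0.76 with Fbxl2 siRNA (SE 0.14, adjusted p = 0.000910). TNF over Fbxl2 siRNA was -0.30 (95% confidence interval -0.63 to 0.02, adjusted p = 0.0989). That difference passed the threshold without library B of the siRNA group (adjusted p = 0.0296) and in a fit of those libraries alone (0.0441). TNF over proliferation was -0.14 (adjusted p = 0.418). An antisense gene, Gm48084, overlaps 3.86% of the Lama2 exon bases.

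The spread of Utrn and Lama2 within groups moved with that of other long transcripts. Over 665 genes with a longest transcript of at least 8000 bases, the median deviation from the group mean (log2 CPM) was 0.0876 in proliferation library A and -0.0733 in proliferation library B. Those 2 libraries deviated by 0.274 and -0.244 for Utrn and by 0.308 and -0.248 for Lama2. The median of the long genes was 0.0728 in TNF library A, 0.0657 in siRNA library A and 0.00642 in control library A. In all 4 groups the A library lay above and the B library below the group mean for the long genes, for Utrn and for Lama2. The part of this tilt in the values of Utrn and Lama2 was not tested.

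In control over proliferation, 7 of the 8 members tested were called higher (Utrn, Dag1, Sgca, Sgcb, Sntb1, Dtna and Lama2) and 1, Sgcd, lower. Of all 12736 genes, 77.2% were called in this comparison, 38.4% higher and 38.9% lower. The median log2 fold change was 0.76 over the 8 members and -0.000836 over all genes. With TNF relative to control, 6 members were called lower (Dag1, Sgca, Sgcb, Sntb1, Dtna and Lama2) and 1, Sgcd, higher. Here 54.6% of all genes were called, 31% higher and 23.6% lower, and the medians were -0.42 over the members and 0.03 over all genes. With library totals in place of TMM factors the calls over all genes split into 3186 higher and 3728 lower, against 3954 higher and 3006 lower with TMM, and Utrn joined the members called lower.

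With Fbxl2 siRNA relative to control, 6 members were called lower (Utrn, Dag1, Sgca, Sgcb, Sntb1 and Lama2) and 0 higher. Only Sgcd was higher at an unadjusted p under 0.05 in edgeR, and neither DESeq2 nor limma called a member higher. In this comparison 63.9% of all genes were called, 34.1% higher and 29.8% lower, with medians of -0.71 over the members and 0.03 over all genes. The 4346 higher and 3796 lower calls became 4005 and 4122 with library totals and 3984 and 4140 with DESeq2 size factors, while 6 members stayed called lower and 0 higher. The TNF and siRNA comparisons share the control libraries, so their likeness is not independent. Control over proliferation uses the same control libraries with the opposite sign, so rises there and falls with TNF or the siRNA are not independent either. Set directly against each other, TNF over Fbxl2 siRNA, 4 members were higher (Utrn, Dag1, Sgcb and Sgcd) and 2 lower (Sntb1 and Dtna), where 60.5% of all genes were called, 29.9% higher and 30.6% lower. Without library A of the TNF group, neither Utrn (adjusted p = 0.142) nor Sgcd passed. The Utrn call was also lost without TNF library C (0.0729), siRNA library B (0.139) or siRNA library C (0.0828), without the B libraries (0.0512) or the C libraries (0.166) of every group, with library totals (0.0625) and with no filter (0.0715).

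**Figure D2:**
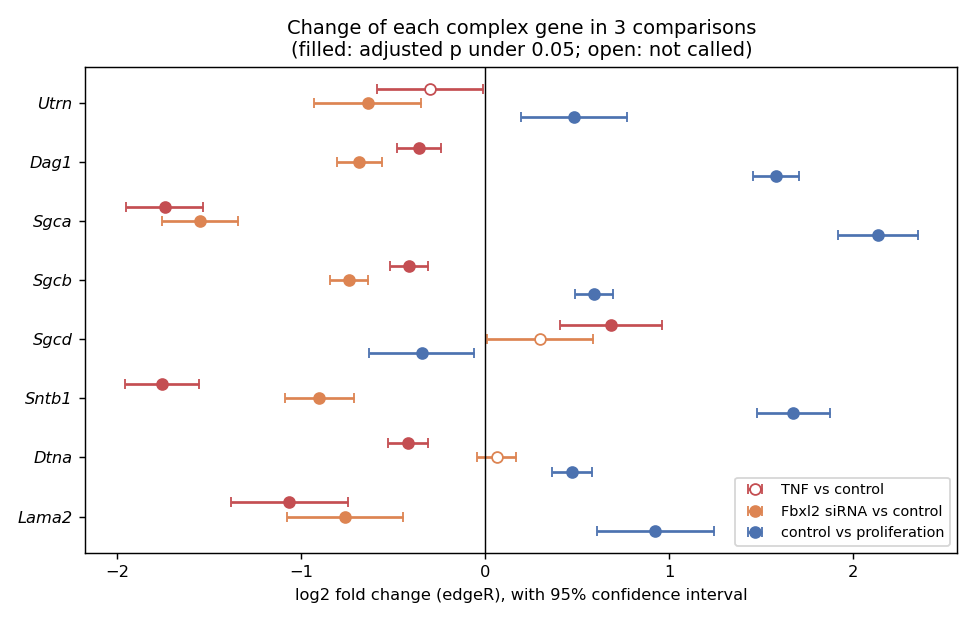
Log2 fold changes of the 8 members tested in control over proliferation, TNF over control and Fbxl2 siRNA over control, with 95% confidence intervals (edgeR, n = 3 libraries per group); filled points have an adjusted p under 0.05. Sgca and Sntb1 show the largest values of the members in control over proliferation, at 2.14 and 1.68, and in TNF over control, at -1.74 and -1.76, and Sgcd alone is above 0 with TNF.

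**Figure D3:**
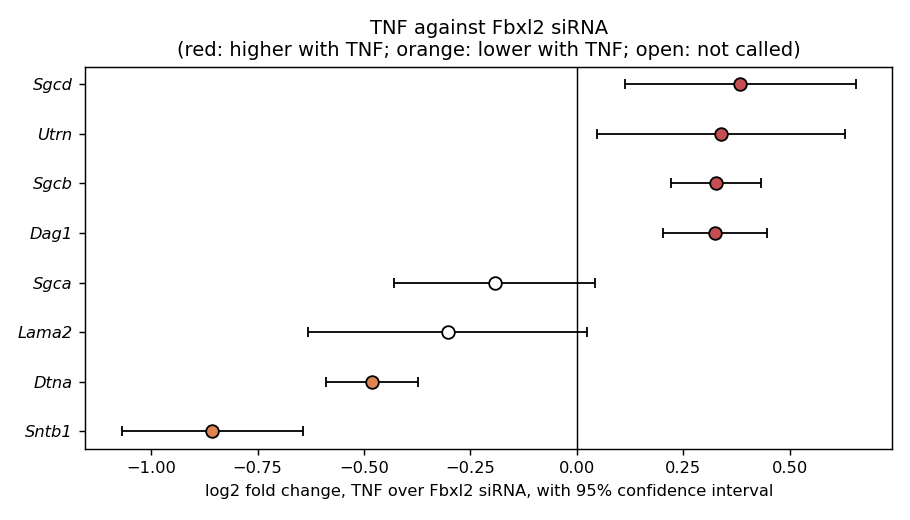
Log2 fold change of TNF over Fbxl2 siRNA for the 8 members tested, with 95% confidence intervals (n = 3 libraries each, edgeR); red points are called higher with TNF, orange points lower, open points not called. Sgcd, Utrn, Sgcb and Dag1 lie between 0.32 and 0.38, while Dtna is at -0.48 and Sntb1 at -0.86.

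Relative to proliferating cells, 4 members were higher in each treated group. With TNF over proliferation, 4 members were called higher (Dag1, Sgca, Sgcb and Sgcd) and 0 lower, where 72.9% of all genes were called, 36.3% higher and 36.5% lower. In the lower direction edgeR gave 0 members an unadjusted p under 0.05, and DESeq2 and limma called 0. The Sgcd call, 0.34 with an adjusted p of 0.0232, was lost without TNF library A (0.0789), TNF library C (0.068) or proliferation library C (0.161), without the C libraries of every group (0.19, adjusted p = 0.326) and in DESeq2 (0.059). The authors' deposited table gave an adjusted p of 0.0520 for Sgcd in TNF over proliferation. Utrn, at 0.19 (adjusted p = 0.220), was called without proliferation library A (0.33, adjusted p = 0.0117). With Fbxl2 siRNA over proliferation, 4 were called higher (Dag1, Sgca, Sntb1 and Dtna) and 1, Sgcb, lower (0 lower in a fit of those groups alone), where 62% of all genes were called, 30.9% higher and 31.1% lower. Sntb1 was 0.77 and Dtna 0.53 higher on the log2 scale in that comparison (adjusted p = 1.78e-06 and 1.95e-08). Lama2 was 0.17 (adjusted p = 0.346), and without proliferation library A it was 0.33 and called (adjusted p = 0.0241).

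Per length, Dag1 was the most abundant member in each group and Dmd the least. In RPKM (CPM divided by the length of the merged exons in kilobases), the control means were 123 for Dag1, 42.9 for Sgcb, 14.9 for Sgca, 14.7 for Utrn, 6.85 for Sntb1, 6.04 for Lama2, 4.59 for Dtna, 0.452 for Sgcd and 0.00783 for Dmd. Dag1, Sgcb, Sgcd and Dmd kept their places in control when the longest transcript was used as the length. With that length, Utrn (20.4 RPKM) stood above Sgca (15.0 RPKM), and Dtna (12.3 RPKM) above Lama2 (10.3 RPKM) and Sntb1 (7.42 RPKM). Sgca and Utrn differed in control by less than the spread of Sgca between libraries, which was 1.30 RPKM (SD, n = 3).

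**Figure D4:**
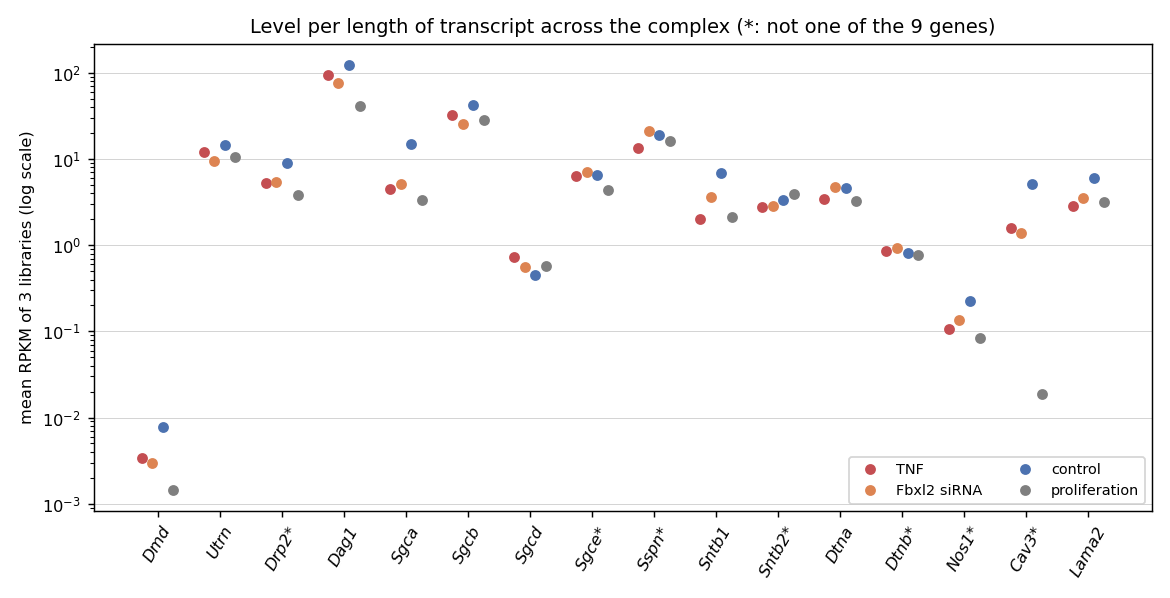
Mean level per length in RPKM (log axis) of the 9 members and, marked with an asterisk, 7 other genes of the complex in the TNF, Fbxl2 siRNA, control and proliferation groups, with n = 3 libraries each. Dag1 is the highest in each group, with 123 RPKM in control, and Dmd the lowest, with 0.00783 RPKM in control; Cav3 stands highest in control among the groups.

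Other genes of the complex were mostly lower with TNF. Of 12 such genes, 9 passed the filter and Sgcz, Sntg1 and Sntg2 did not. In control over proliferation 6 were higher and 1, Sntb2, lower; with TNF relative to control 0 were higher, with 0 at an unadjusted p under 0.05 in edgeR and 0 called by DESeq2 or limma, and 7 were lower; with Fbxl2 siRNA relative to control 3 were higher and 5 lower. With Fbxl2 siRNA, DESeq2 called 0 higher and 5 lower, limma 3 higher and 5 lower, and library totals gave 1 higher and 5 lower. That made 7, 7 and 8 of 9 called in the main fit, against 77.2%, 54.6% and 63.9% of all genes. With TNF over control, 23.6% of all genes were called lower. The medians of the 9 were 0.57, -0.53 and -0.25 in the 3 comparisons.

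Cav3, caveolin-3, the muscle caveolin that binds β-dystroglycan, averaged 1.86 CPM with TNF, 1.62 CPM with Fbxl2 siRNA and 5.90 CPM in control, and had 2 counts over the 3 proliferation libraries. Its control to proliferation count ratio was 265 (exact 95% counting interval 72.9 to 2190), and it fell relative to control by 1.66 with TNF and by 1.86 with Fbxl2 siRNA (adjusted p = 6.97e-08 and 1.70e-08). Drp2, dystrophin-related protein 2, averaged 45.3 CPM with TNF, 46.9 CPM with Fbxl2 siRNA, 77.8 CPM in control and 32.6 CPM in proliferation. It rose by 1.25 in control over proliferation and fell relative to control by 0.78 with TNF and by 0.73 with Fbxl2 siRNA (adjusted p at most 2.94e-10). Nos1, the neuronal nitric oxide synthase that docks on syntrophin, was at 1.18, 1.51, 2.54 and 0.942 CPM in TNF, siRNA, control and proliferation cells, and fell by 1.10 with TNF and by 0.74 with the siRNA. Sspn, sarcospan, averaged 66.9 CPM with TNF, 107 CPM with Fbxl2 siRNA, 96.4 CPM in control and 80.6 CPM in proliferation. It fell with TNF by 0.53 and was 0.15 higher with the siRNA (adjusted p = 1.88e-08 and 0.0139). Sgce, ε-sarcoglycan, which takes the place of Sgca outside striated muscle, was -0.02 with TNF over control (adjusted p = 0.760) and 0.12 with the siRNA (adjusted p = 0.0186).

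Matrix and sugar-chain genes around dystroglycan went in both directions. Of 18 laminins and matrix partners, all tested, 11 were higher and 3 lower in control over proliferation, 5 higher and 5 lower with TNF over control, and 5 higher and 10 lower with Fbxl2 siRNA over control. Of all genes, 77.2%, 54.6% and 63.9% were called in these comparisons, which is the background for 14, 10 and 15 of these 18. Median log2 fold changes were 0.91, -0.12 and -0.54 in these comparisons. With TNF, Lama4 (laminin α4), Agrn (agrin, a ligand of α-dystroglycan) and Bgn (biglycan) rose by 1.64, 1.01 and 0.50. With the siRNA, the nidogen Nid1 rose by 1.09 and its relative Nid2 fell by 1.33. In control over proliferation the log2 values were 2.86 for Nid2 and -1.07 for Nid1, both called. A fit of the TNF and control libraries alone called 17 of the 18 in the TNF comparison, 6 higher and 11 lower. Over all genes that fit called 3832 higher and 3685 lower, against 3954 and 3006 in the main fit.

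Of 19 genes for the glycosylation of dystroglycan, 18 were tested. In control over proliferation 11 were higher and 2 lower, with TNF over control 6 higher and 4 lower, and with Fbxl2 siRNA over control 3 higher and 4 lower. That made 13, 10 and 7 of 18 called, against 77.2%, 54.6% and 63.9% of all genes. The medians of the 18 were 0.27, 0.01 and -0.08. With library totals the TNF split was 2 higher and 5 lower, and with DESeq2 2 higher and 4 lower. Large, which elongates the laminin-binding sugar chain, averaged 84.1 CPM with TNF, 59.0 CPM with Fbxl2 siRNA, 78.6 CPM in control and 37.5 CPM in proliferation. It rose by 1.07 in control over proliferation and fell by 0.41 with the siRNA (adjusted p = 1.20e-06), and was 0.10 with TNF (adjusted p = 0.121). B4gat1, which primes that chain, rose by 0.53 in control over proliferation and fell by 0.23 with TNF. Pomgnt2, an O-mannose glycosyltransferase, rose by 1.28 and fell by 0.57 in the same comparisons, and Gmppa rose by 0.31 with TNF. With the siRNA the O-mannose kinase gene Pomk fell by 0.35 and Tmem5, a xylosyltransferase, rose by 0.48.

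Of 16 costamere and laminin receptor genes, all tested, 9 were higher and 3 lower in control over proliferation, 4 higher and 5 lower with TNF over control, and 4 higher and 9 lower with Fbxl2 siRNA over control. That made 12, 9 and 13 of 16 called, against the same 77.2%, 54.6% and 63.9% of all genes. The medians of the 16 were 0.29, -0.05 and -0.25. Dysf, dysferlin of membrane repair, rose by 2.54 in control over proliferation and fell by 1.45 with TNF and fell by 1.03 with the siRNA. With TNF over control, Itga7, the laminin-binding integrin α7, was called at -0.82 and Pxn, paxillin, at -0.60. Krt19, a keratin of costameres, was called at -3.27 in control over proliferation and at 2.67 with the siRNA, and Parvb, β-parvin, at -0.58 and 0.52.

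Muscle markers moved beside the members. All 8 were tested, with 7 higher and 1 lower in control over proliferation, 0 higher and 8 lower with TNF over control, and 1 higher and 6 lower with Fbxl2 siRNA over control. Of all genes, 77.2%, 54.6% and 63.9% were called in these comparisons. The summed level of these 8 markers was 1269 to 1315 CPM with TNF and 2012 to 2304 CPM with Fbxl2 siRNA. It was 2904 to 3181 CPM in control and 1427 to 1576 CPM in proliferation. Des was the largest part of this sum in each group, at 727 CPM with TNF and 1095 CPM in proliferation. In TNF over proliferation 4 of the 8 were called higher and 4 lower, where 72.9% of all genes were called. For instance, Myog averaged 79.9 CPM with TNF and 22.5 CPM in proliferation, and Myh3 153 and 6.3 CPM. Ckm, Tmem8c (the fusion protein myomaker) and Cdh15 rose by 5.74, 4.94 and 0.64 in control over proliferation. With TNF over control the called log2 values were -1.12 for Myod1, -1.11 for Cdh15 and -0.72 for Des. With the siRNA they were -1.54 for Myog, -0.82 for Myod1 and 0.48 for Myf5. Their part in the members' values was not tested.

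Genes that mark other cell types moved too. The 7 fibroblast markers, 6 of them tested, summed to 6338 to 6671 CPM with TNF and 10223 to 10871 CPM with Fbxl2 siRNA. Their sum was 8759 to 8881 CPM in control and 3456 to 4295 CPM in proliferation. Col3a1 was the largest part of it, at 3939, 8188, 5963 and 3031 CPM in the TNF, siRNA, control and proliferation groups. Thy1, the marker not tested, had 1 count over the siRNA libraries and 0 in the other groups. With TNF Dcn fell by 2.04 and Pdgfra rose by 1.04, and Lum had 6 counts over the TNF libraries, against 98 counts over the control libraries. With the siRNA Ly6a and Col3a1 rose by 0.57 and 0.46 while Col1a1 fell by 0.58. The 4 smooth muscle markers, 3 of them tested, summed to 4012 to 4155 CPM with TNF and 1834 to 1963 CPM with Fbxl2 siRNA. Their sum was 3410 to 3588 CPM in control and 669 to 675 CPM in proliferation. Acta2 was the largest part of it in each group, at 3408 CPM with TNF and 568 CPM in proliferation. Myh11, the marker not tested, had 10, 7, 12 and 4 counts over the TNF, siRNA, control and proliferation libraries. Tagln, Cnn1 and Acta2 rose with TNF by 0.49, 0.58 and 0.19, and their called values with the siRNA were -1.27, -2.12 and -0.82. The part of these genes in the members' values was not tested. Macrophage, endothelial and Schwann cell markers each summed to under 3 CPM in every library, adipocyte markers to 2.78 to 13.7 CPM and neuron markers to 48.1 to 178 CPM, nearly all of it Tubb3. The macrophage gene Adgre1, the Schwann cell gene Sox10 and the neuron gene Snap25 had 0 counts in all 12 libraries. The genes tested from these 5 lists included Csf1r, Cd68, Tek, Pparg and Tubb3. With TNF over control called values were -0.85 for Cd68, -1.95 for Tek, -0.94 for Pparg and -0.66 for Tubb3. With the siRNA they were -0.59 for Cd68, 0.62 for Pparg and 0.82 for Tubb3.

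The genes whose log2 CPM over the 12 libraries, each centred on its own mean, lay closest to each member were found among 11584 genes of at least 1 CPM on average, by root mean square difference. Utrn lay closest to Kmt2c (0.0515), Wdfy3 (0.0655) and Sptan1 (0.0687), and Dag1 to Slc29a1 (0.0533), Mmp14 (0.0552) and Hexa (0.0628). For Sgca they were Nrap (0.162), Nav2 (0.178) and Cntf (0.183), for Sgcb Fhl2 (0.0712), Atp7a (0.0768) and Rmnd5a (0.08), and for Sgcd Epn2 (0.152), Arhgap26 (0.155) and Zfp345 (0.159). For Sntb1 they were Inadl (0.131), Tnnt2 (0.143) and Sulf2 (0.172), and for Dtna Rnf217 (0.0618), Slc39a3 (0.074) and Rnf11 (0.0743). Among those closest to Lama2 were Flnc (0.0962) and Heg1 (0.111). The members' own root mean square spread over the 12 libraries ran between 0.246 for Dtna and 0.818 for Sgca. Dmd was too low for this comparison.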

How the data were processed

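Processed values were taken as the authors deposited them. The main table held gene counts, raw and not normalized, for 12 libraries of C2C12 cells made with an Illumina mRNA kit, per the labels' protocols. The submitters' processing notes name CASAVA, DESeq2 and mm10, and which aligner and gene annotation the authors used is not stated in these sources. The authors' comparison tables also hold a signal (counts divided by 1 size factor per library), log2 fold changes and p-values, raw and adjusted, as deposited; they are printed only where named, and the table named for proliferation holds TNF over proliferation, as its values matched that contrast.

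Counts were fitted with edgeR 4.0.16 in R 4.3.3 (filterByExpr with a minimum count of 10, TMM factors, robust quasi-likelihood test, 4 group means and 8 residual degrees of freedom), with Benjamini-Hochberg adjustment over 12736 genes. In all, 4354 of 21232 genes had no count. DESeq2 1.42.0, limma 3.58.1, other scalings, no filter, a replicate block and leaving out each library were alternatives. The fit was tested on simulated counts of TNF over control in which few genes were changed. In the data 54.6% of genes were called in that comparison, a setting the simulation did not cover. Lengths and coordinates came from GENCODE M21 on GRCm38, and promoters from RefSeq. Over all genes tested, deviations from the group mean had a median correlation of 0.003 over 18 same-letter pairs of libraries (lowest -0.096, highest 0.183). The labels do not say what a letter marks, so the letters were not used as pairs in the main fit. For long genes, which that median does not single out, the A libraries were high and the B libraries low in all 4 groups. In the library titles, the A libraries of all 4 groups carry lower S numbers than the B and C libraries. What these numbers mark is not stated.

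The members and gene lists were chosen with earlier results of these data known. Beside the members, the text names Fbxl2, the 3 genes with the smallest p of each list in each of 3 comparisons, Sgce, Sspn, Nos1, Cav3 and Large whatever their result, and the 3 genes most like each member. Some genes that this rule names are not reported here. Other named genes (Sntb2, Sgcz, Sntg1, Sntg2, Adgre1, Sox10 and Snap25) were chosen after their values were seen.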

Additional observations from a re-analysis of the deposited data

How the results depend on the processing

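Each of the 8 members' fold changes in TNF over control and in Fbxl2 siRNA over control kept its direction under all 16 alternatives, and no call made there was lost; Utrn with TNF and Sgcd with the siRNA crossed the threshold under 5 and 2 of them. In control over proliferation, 120 of 128 values kept their side of the threshold, and the 8 lost calls were those of Sgcd (7) and Utrn (1). Laminin and matrix genes called with TNF over control numbered 10, and 17 in a fit of those 2 groups alone. Over all genes, calls in that comparison numbered 6960, and 7517 in the fit of those 2 groups alone. Glycosylation genes called with TNF over control numbered 10, but 6 with no filter and 6 with DESeq2, and 5 to 9 with libraries left out. Other complex genes called with Fbxl2 siRNA over control numbered 8, but 5 with no filter and 5 with DESeq2, and 5 to 8 with libraries left out. Members called in TNF over proliferation numbered 4, and 2 to 5 with libraries left out. Directions turned in 2 uncalled values: Lama2 in TNF over proliferation ran between -0.25 and 0.03 with libraries left out. Sgcd in Fbxl2 siRNA over proliferation was -0.05, and its 5 turned values were 0.0221, 0.0105, 0.0074, 0.0177 and 0.0649, with leave-one-out values between -0.1727 and 0.0221 for single libraries and between -0.2162 and 0.0649 for a letter of every group. The causes were not tested.

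With the replicate letters as a block, members called in TNF over control numbered 8 against 7 without it, since Utrn was then called (log2 -0.31, adjusted p = 0.000501); in TNF over Fbxl2 siRNA 7 against 6, with Lama2 added (-0.30, adjusted p = 0.00246); and in TNF over proliferation 5 against 4, with Utrn added (adjusted p = 0.011). Utrn and Lama2 are among the long genes that were high in the A and low in the B library of each group. Dmd had 3 to 17 counts per group, out of 84049690 to 88382085 counts in all, too few for a fitted comparison with the filter on.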
